A study of Mus musculus with 12 samples.

Results

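The genes of the presynaptic vesicle release machinery were followed in mouse glutamatergic neurons that had been differentiated in culture from embryonic stem cells. The set holds 38 genes for synaptic vesicle and active-zone proteins. They were chosen by name, with earlier results of these data known, and matched by symbol to the Ensembl identifiers in the deposited tables. Counts were given for 37 of the 38, out of 33560 genes with counts in all, and every one of the 37 passed the filter on low counts. Rims1, a scaffold gene of the active zone, was listed as NA in all 12 tables and has no value here. The cells were wild-type (WT) neurons or neurons without the microexon of Daam1 (KO), and both were harvested at day 21 in vitro. Daam1 encodes a formin, a protein that assembles actin filaments, and a microexon is a very short exon, often one that neurons include in the mature transcript. For 2 h before harvest the neurons received either water, the vehicle, or 10 µM Y-27632, a small-molecule kinase inhibitor. Each of the 4 groups (WT vehicle, KO vehicle, WT inhibitor and KO inhibitor) had 3 libraries, and each of the 3 WT and 3 KO cell lines gave 1 vehicle and 1 inhibitor library. The labels do not say whether the lines of a genotype were derived independently, so the p-values measure the spread between these lines only. Libraries are named below by group and line number, as in KO inhibitor 3, and triplets of values are in the order of lines 1, 2 and 3.

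A nerve terminal stores transmitter in vesicles, docks them at the active zone, and fuses them with the plasma membrane when calcium enters. Synapsins hold the vesicle reserve together, and a SNARE complex of the vesicle protein synaptobrevin with the membrane proteins syntaxin and SNAP25 drives fusion. Munc13 and RIM proteins prime the docked vesicle, synaptotagmins sense calcium, and dynamin and synaptojanin recover the membrane by endocytosis.

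Library totals ran from 23253566 to 35012561 counts. The table of counts per gene cannot show the deletion of the microexon. Daam1 itself was counted at 133 to 188 CPM (counts scaled to a common library size with TMM factors) in 11 libraries, with WT and KO values intermixed, and at 67.9 CPM in KO inhibitor 3. That library stood apart. Its median correlation with the others over all genes tested was 0.854, against 0.953 to 0.986 for the rest, and its summed progenitor markers were 1170 CPM against 55.5 to 485 CPM. The label of glutamatergic neurons was met in part. Of 10 glutamatergic markers, Slc17a6, the vesicular glutamate transporter VGLUT2, was counted at 242 to 424 CPM in the other 11 libraries, and Gria2, Grin2b and Camk2a at 32.8 to 420 CPM. The other 6, Slc17a7 (the transporter VGLUT1), Neurod1, Neurod2, Neurod6, Tbr1 and Emx1, were at 2.07 CPM or less in every library. Of 9 GABAergic markers, Gad1, Gad2 and Slc32a1 were at 122 to 260 CPM in those 11 libraries and Sst, Npy and Lhx6 at 14.1 to 151 CPM, while Dlx1, Dlx2 and Dlx5 were at 1.11 CPM or less in every library. WT vehicle 2 and WT inhibitor 3 had the highest mesenchymal marker sums, 2066 and 1307 CPM, against 77.8 to 653 CPM in the other 10 libraries. After KO inhibitor 3, these WT libraries also had the highest progenitor sums, 485 and 451 CPM, and oligodendrocyte marker sums, 171 and 118 CPM.

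The release genes were abundant transcripts. In the authors' length-scaled unit, cRPKM, the median of the 37 genes over the mean of the WT vehicle libraries was 48.8, against 7.01 over all genes tested, and 35 of the 37 lay above that second value. Levels per length spanned more than 2 orders of magnitude among the members. Vamp2, the main synaptobrevin of brain synapses, led with 549 ± 41.6 cRPKM (SD, n = 3). Snap25, the SNARE partner at the plasma membrane, followed with 482 ± 142 cRPKM, and Syp, the vesicle membrane protein synaptophysin, with 409 ± 48.5 cRPKM. Next came Cplx1, a complexin that clamps and activates the SNARE complex, at 318 ± 28.1 cRPKM, and Rab3a, the vesicle GTPase, at 286 ± 18.8 cRPKM. Vesicle and SNARE genes held these top places, while priming and scaffold genes filled much of the lower end. Unc13b, which encodes the priming factor Munc13-2, was the lowest at 2.72 ± 1.03 cRPKM, below Doc2b, a calcium-binding protein of the vesicle, at 5.47 ± 0.46 cRPKM. The giant active-zone scaffolds Bsn (bassoon) and Pclo (piccolo) lay at 10.8 ± 1.03 and 9.49 ± 2.69 cRPKM. Of the 36 neighbouring pairs in the order of levels, 29 had overlapping libraries. The 7 neighbours that were separated included Syp above Cplx1, Rab3a above Dnm1, Cplx2 above Syt4, and Doc2b above Unc13b.

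**Figure D1:**
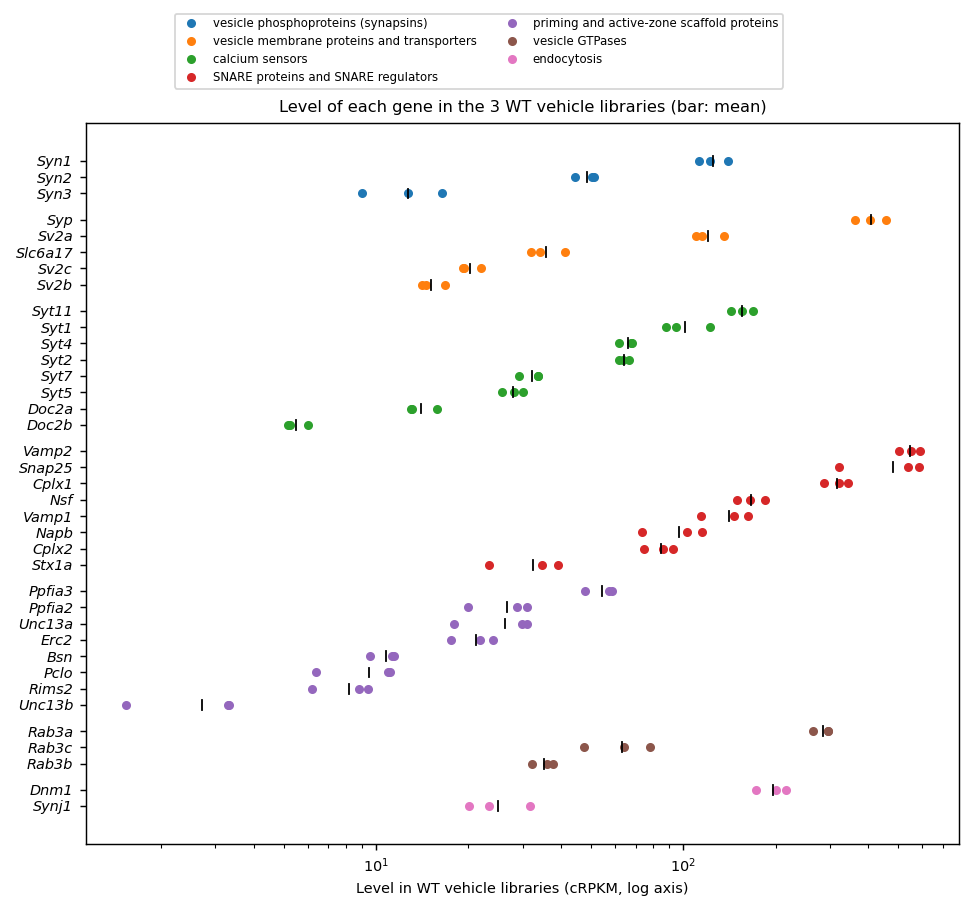
Level of each of the 37 release genes in the 3 WT vehicle libraries (x axis: cRPKM, log scale; y axis: genes grouped by role, coloured by role). Points are libraries and black bars are means; the SNARE gene Vamp2 is highest at a mean of 549 cRPKM and the priming gene Unc13b lowest at 2.72 cRPKM.

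Within families, one member was often well above its relatives. Syn1 exceeded Syn3 by 7.94 to 12.5 fold in cRPKM over the 6 WT libraries and by 9.53 to 11.9 fold over the 5 KO libraries other than KO inhibitor 3. Unc13a, the Munc13-1 gene, exceeded Unc13b by 8.95 to 11.7 fold in WT and by 10.2 to 16.2 fold in those KO libraries. Rab3a exceeded Rab3b by 7.28 to 8.36 fold in WT and by 8.24 to 12.8 fold in KO. In each of the 4 groups, KO inhibitor 3 included, the libraries of the higher gene lay above those of the lower gene for 8 pairs. These were Syn1 and Syn2 over Syn3, Syt11 over Syt7 and Syt5, Unc13a over Unc13b, Sv2a over Sv2b, and Rab3a over Rab3c and Rab3b. Unc13a over Unc13b was 2.57 in KO inhibitor 3. The rule is strict, because the low levels of that library widen the range of its group. Syn1 over Syn2 was 2.22 to 2.78, Vamp2 over Vamp1 2.48 to 4.42 and Cplx1 over Cplx2 3.23 to 4.32 in all 12 libraries. These pairs and others separated in each group only without KO inhibitor 3. Bsn and Pclo did not separate even then, with ratios of 1.02 to 1.5 in WT and 0.992 to 1.2 in KO. Syt2 and Syt4, and Syt7 and Syt5, did not either.

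RefSeq promoter windows of build GRCm38.p6, taken as the 250 bases before each annotated start, were found for 29 of the 38 genes. The windows were searched on both strands for 6 short motifs, which do not overlap one another in the sequences printed here. The GC box GGGCGG, the core that Sp1-type factors bind, occurred in 69% of the release genes with a window and in 35.4% of all 27025 genes with one. It was in 71.1% of the 45 other release-cycle genes with a window and in 44.4% of the 9 pan-neuronal marker genes with one. The median GC content was 61.2% in the release windows and 52.4% in all windows. The cAMP response element TGACGTCA occurred in 3.45% of the release genes, Syn1 only, against 1.77% of all genes. The left part of the RE1 element bound by the repressor REST, TTCAGCACC, occurred in 6.9%, in Syn1 and Ppfia3, against 0.348% of all genes. Its right part GGACAGCGC was found in none, against 0.363%. TATAAA occurred in 6.9% against 14.3%, and the E box CACGTG in 10.3% against 6.86%. These matches describe letters in the windows and do not show binding. The upstream sequences of 4 genes are printed 5′ to 3′ up to the start of the annotated gene, with the motifs above in capitals. They are Syn1, which holds the CRE and the RE1 part, Vamp1 and Sv2c, with the highest KO to WT ratios in vehicle, and Unc13b, the member that was not low in KO inhibitor 3. Syn1 lies at chrX:20921005-20921168, minus strand, Vamp1 at chr6:125215331-125215550, plus strand, Sv2c at chr13:96132578-96132827, minus strand, and Unc13b at chr4:43058703-43058952, plus strand.
Syn1: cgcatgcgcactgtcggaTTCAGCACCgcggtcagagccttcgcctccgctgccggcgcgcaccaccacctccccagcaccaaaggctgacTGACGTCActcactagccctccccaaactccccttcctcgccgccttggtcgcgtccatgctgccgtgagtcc
Vamp1: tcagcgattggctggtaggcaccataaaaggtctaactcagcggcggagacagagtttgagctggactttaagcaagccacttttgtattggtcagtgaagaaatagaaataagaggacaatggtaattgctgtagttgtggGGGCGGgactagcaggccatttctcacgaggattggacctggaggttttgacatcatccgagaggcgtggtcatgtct
Sv2c: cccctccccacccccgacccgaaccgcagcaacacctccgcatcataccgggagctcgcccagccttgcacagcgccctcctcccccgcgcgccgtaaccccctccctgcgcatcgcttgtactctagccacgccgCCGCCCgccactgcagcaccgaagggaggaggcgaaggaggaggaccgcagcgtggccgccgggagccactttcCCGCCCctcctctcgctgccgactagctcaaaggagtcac
Unc13b: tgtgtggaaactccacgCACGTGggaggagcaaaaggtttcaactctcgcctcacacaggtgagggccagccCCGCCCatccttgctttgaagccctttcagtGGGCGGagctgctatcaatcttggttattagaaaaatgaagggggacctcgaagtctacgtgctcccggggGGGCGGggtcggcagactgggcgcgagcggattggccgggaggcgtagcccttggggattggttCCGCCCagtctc
In these windows CCGCCC is the GC box read on the opposite strand. Unc13b carried 4 GC boxes and 1 E box, Sv2c 2 GC boxes, Vamp1 1, and the Syn1 sequence none.

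The 12 libraries fell into 11 with similar levels and 1 with low levels. The 37 genes together took 1.0556% to 1.5039% of all counts in 11 libraries and 0.3776% in KO inhibitor 3. In that library 36 of the 37 were below their value in each of the other 11, where 39% of all genes tested were at their lowest and 38.4% at their highest. The exception was Unc13b. The median difference between KO inhibitor 3 and the mean of KO inhibitor 1 and 2 was -1.99 on the log2 scale over the 37 genes and 0.0099 over all genes tested. It reached -2.32 for the vesicle membrane proteins, -2.06 for both the priming and scaffold genes and the endocytosis genes, -1.98 for the SNARE genes and for the synapsins, -1.80 for the calcium sensors, and -1.73 for the vesicle GTPases. Pan-neuronal markers such as Map2, Tubb3 and Stmn2 had a median difference of -1.70, so the release genes were low in company with other neuronal transcripts. The astrocyte and progenitor marker lists had medians of 3.10 and 3.39. The remaining marker lists had medians of 3.90 (pluripotent, 4 genes), 2.03 (oligodendrocyte), -0.28 (mesenchymal), -0.52 (glutamatergic) and -1.09 (GABAergic). All 10 progenitor markers and 8 of the 10 astrocyte markers were higher in KO inhibitor 3 than in the mean of the other KO inhibitor libraries. The part of these other cell types in the low values was not tested, and in RNA from whole cultures fewer neurons and less RNA per neuron cannot be told apart. No test was made of a single library, and the counts in each comparison below that uses it are given with and without it.

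**Figure D2:**
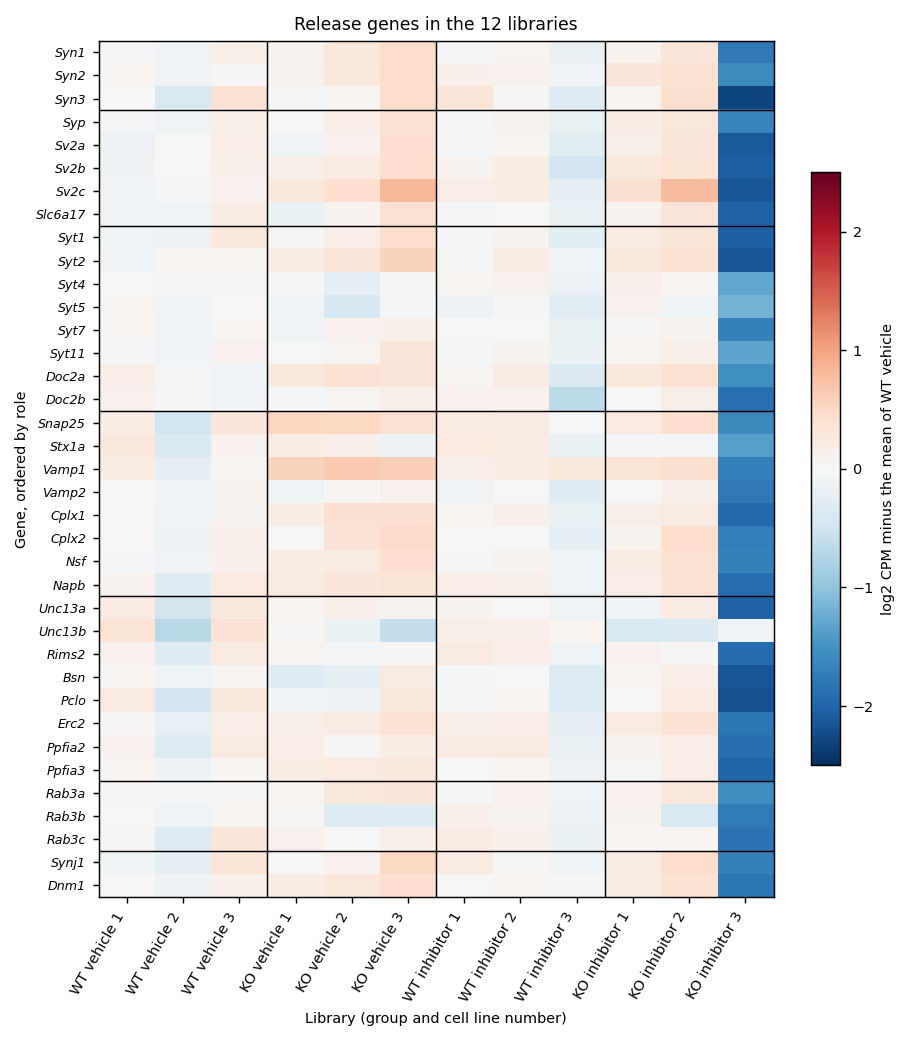
Level of 37 release genes (rows, ordered by role, black lines between roles) in 12 libraries (columns), as log2 CPM minus the mean of the 3 WT vehicle libraries. Blue is lower and red is higher; KO inhibitor 3 is blue for 36 genes and near the WT vehicle mean for Unc13b, and Vamp1, Snap25 and Sv2c are reddest in KO vehicle.

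Synapsins coat the vesicle and tether it to its neighbours. Syn1 was measured at 384, 374 and 442 CPM in WT vehicle, 423, 486 and 549 in KO vehicle, 391, 417 and 351 in WT inhibitor and 424, 494 and 116 in KO inhibitor. The KO vehicle range reached higher than the WT vehicle range, with an overlap between KO vehicle 1 and WT vehicle 3. Syn2 had 133, 122 and 132 CPM in WT vehicle, 137, 154 and 176 in KO vehicle, 140, 139 and 123 in WT inhibitor and 158, 168 and 42.8 in KO inhibitor. Its 3 KO vehicle libraries were all above the 3 WT vehicle libraries. Syn3, the least abundant synapsin, had 28.6, 21.5 and 37.2 CPM in WT vehicle, 27.6, 29.4 and 38.9 in KO vehicle, 35.4, 29 and 22.6 in WT inhibitor and 29.8, 37.3 and 5.76 in KO inhibitor, with the groups overlapping. On the opposite strand, exons of Araf overlap Syn1 and exons of Timp3 overlap Syn3. The labels give a stranded kit but not whether counting used strand, and Timp3 reached 159 CPM, above Syn3, so reads of the partners cannot be told apart.

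Among the vesicle membrane proteins, Syp was measured at 1005, 951 and 1147 CPM in WT vehicle, 1044, 1154 and 1342 in KO vehicle, 996, 1103 and 908 in WT inhibitor and 1177, 1262 and 324 in KO inhibitor. Its vehicle groups overlapped. Sv2a, which encodes the most widely expressed SV2 glycoprotein and the binding site of the drug levetiracetam, had 462, 506 and 573 CPM in WT vehicle, 477, 553 and 683 in KO vehicle, 497, 530 and 417 in WT inhibitor and 565, 638 and 120 in KO inhibitor. Sv2b, its relative, had 75.6, 81.7 and 90.4 CPM in WT vehicle, 91.6, 95.3 and 110 in KO vehicle, 87.6, 93.3 and 59.4 in WT inhibitor and 99.1, 105 and 19.7 in KO inhibitor. The KO vehicle libraries of Sv2b were above those of WT vehicle, whereas Sv2a overlapped. Sv2c, the isoform known from basal ganglia and other subcortical neurons, had 170, 177 and 193 CPM in WT vehicle, 216, 242 and 314 in KO vehicle, 201, 206 and 153 in WT inhibitor and 237, 306 and 40.9 in KO inhibitor. All 5 KO libraries other than KO inhibitor 3 exceeded all 6 WT libraries for Sv2c, and KO vehicle 3 and KO inhibitor 2 were the highest. Slc6a17, a vesicular amino acid transporter, ranged from 194 to 290 CPM in the other 11 libraries and 54.9 in KO inhibitor 3.

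Calcium sensors start fusion when calcium binds. Syt1, the fast sensor of forebrain synapses, was measured at 443, 432 and 571 CPM in WT vehicle, 485, 533 and 645 in KO vehicle, 467, 506 and 399 in WT inhibitor and 558, 586 and 116 in KO inhibitor, and its vehicle groups overlapped. Syt2, the fast sensor of hindbrain and spinal synapses, had 411, 447 and 447 CPM in WT vehicle, 491, 540 and 639 in KO vehicle, 445, 491 and 412 in WT inhibitor and 526, 567 and 98.2 in KO inhibitor. Every KO library other than KO inhibitor 3 was above every WT library for Syt2, with KO vehicle 1 and WT inhibitor 2 equal at the precision printed. Syt11, a synaptotagmin that does not bind calcium, had 701, 678 and 764 CPM in WT vehicle, 708, 749 and 886 in KO vehicle, 697, 759 and 634 in WT inhibitor and 750, 789 and 287 in KO inhibitor. It was the most abundant of the 6 synaptotagmins per length. Syt7, linked to asynchronous release and facilitation, had 207, 189 and 209 CPM in WT vehicle, 188, 217 and 221 in KO vehicle, 202, 204 and 178 in WT inhibitor and 205, 214 and 62.4 in KO inhibitor. Syt5 had 49.8, 45.1 and 47 CPM in WT vehicle, 43.9, 35.2 and 46.6 in KO vehicle, 43.5, 46.4 and 38.7 in WT inhibitor and 50.6, 43.6 and 20.9 in KO inhibitor. Both Syt7 and Syt5 overlapped between the vehicle groups, and Syt5 was lowest in KO vehicle 2 among the vehicle libraries. Syt4, an isoform with a weakened calcium site, ranged from 213 to 275 CPM in the other 11 libraries and 103 in KO inhibitor 3. Doc2a, a high-affinity calcium sensor of spontaneous and asynchronous release, had 38.5, 33.3 and 32.1 CPM in WT vehicle, 41.5, 44.3 and 42.9 in KO vehicle, 36.1, 39.8 and 26.7 in WT inhibitor and 41.7, 45 and 11.9 in KO inhibitor. Its 5 KO libraries other than KO inhibitor 3 were above all 6 WT libraries, though exons of Ino80e overlap it on the opposite strand and reached 36.7 CPM. Its paralog Doc2b ranged from 14.9 to 25.9 CPM in the other 11 libraries and 6.43 in KO inhibitor 3.

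SNARE proteins zip together to fuse the membranes. Snap25 was measured at 1078, 676 and 1177 CPM in WT vehicle, 1384, 1366 and 1232 in KO vehicle, 1106, 1092 and 956 in WT inhibitor and 1124, 1277 and 310 in KO inhibitor. WT vehicle 2 was the lowest of the 11 other libraries, and the 3 KO vehicle libraries were above the 3 WT vehicle libraries. Stx1a, a syntaxin, had 80.4, 50.9 and 71.8 CPM in WT vehicle, 75.3, 72.3 and 61 in KO vehicle, 78.4, 76.5 and 59.5 in WT inhibitor and 65.3, 65.1 and 25.6 in KO inhibitor, and its groups overlapped. Vamp1, the synaptobrevin of spinal cord and brainstem, had 432, 322 and 391 CPM in WT vehicle, 556, 599 and 574 in KO vehicle, 420, 438 and 456 in WT inhibitor and 482, 500 and 114 in KO inhibitor. The KO vehicle libraries were above every WT library and also above the KO inhibitor libraries. Vamp2 had 1165, 1125 and 1247 CPM in WT vehicle, 1091, 1215 and 1263 in KO vehicle, 1115, 1164 and 944 in WT inhibitor and 1171, 1281 and 341 in KO inhibitor, with no separation between groups. Cplx1 had 673, 636 and 722 CPM in WT vehicle, 769, 891 and 892 in KO vehicle, 703, 736 and 594 in WT inhibitor and 750, 790 and 175 in KO inhibitor. It was higher in each of the 5 KO libraries than in each of the 6 WT libraries, KO inhibitor 3 left aside. Nsf, the ATPase that takes spent SNARE complexes apart, had 601, 574 and 670 CPM in WT vehicle, 698, 721 and 817 in KO vehicle, 624, 655 and 572 in WT inhibitor and 710, 794 and 191 in KO inhibitor, with the same separation. Napb, the beta-SNAP adaptor of Nsf, ranged from 329 to 532 CPM in the other 11 libraries and 111 in KO inhibitor 3. Cplx2 ranged from 331 to 547 CPM in the other 11 libraries and 118 in KO inhibitor 3.

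Priming and scaffold proteins arrange the release site. Unc13a was measured at 298, 188 and 310 CPM in WT vehicle, 271, 281 and 276 in KO vehicle, 277, 257 and 242 in WT inhibitor and 243, 298 and 64.1 in KO inhibitor. Without WT vehicle 2 its KO vehicle libraries were below those of WT, and with it they overlapped. Exons of Colgalt1 overlap Unc13a on the opposite strand, at up to 170 CPM. Unc13b had 20.3, 9.93 and 20.6 CPM in WT vehicle, 16.4, 14.3 and 10.5 in KO vehicle, 17.9, 17.6 and 16.7 in WT inhibitor and 12.4, 12.5 and 15.4 in KO inhibitor. It was lower in all 3 KO inhibitor libraries than in all 3 WT inhibitor libraries, and KO inhibitor 3 was the highest of those KO libraries. Bsn had 175, 156 and 176 CPM in WT vehicle, 135, 143 and 198 in KO vehicle, 165, 169 and 133 in WT inhibitor and 175, 190 and 37.8 in KO inhibitor, with overlap. Ppfia3, a liprin that binds the scaffold, had 258, 223 and 254 CPM in WT vehicle, 277, 291 and 292 in KO vehicle, 247, 254 and 221 in WT inhibitor and 236, 273 and 60.9 in KO inhibitor. Its KO vehicle libraries were above WT vehicle, and above KO inhibitor too. Pclo ranged from 130 to 217 CPM in the other 11 libraries and 39.6 in KO inhibitor 3. The RIM gene Rims2 ranged from 29.9 to 43.7 CPM in the other 11 libraries and 9.86 in KO inhibitor 3, the scaffold gene Erc2 from 107 to 162 CPM in the other 11 libraries and 36.1 in KO inhibitor 3, and the liprin gene Ppfia2 from 111 to 164 CPM in the other 11 libraries and 38.1 in KO inhibitor 3. All 4 of these were lowest in KO inhibitor 3.

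The Rab3 GTPases mark vesicles that are ready to dock. Rab3a was measured at 204, 192 and 204 CPM in WT vehicle, 210, 242 and 248 in KO vehicle, 196, 215 and 186 in WT inhibitor and 216, 239 and 68.4 in KO inhibitor. KO vehicle was above WT vehicle in every library. Rab3b had 116, 109 and 121 CPM in WT vehicle, 117, 90.8 and 92 in KO vehicle, 126, 123 and 104 in WT inhibitor and 122, 86.9 and 34 in KO inhibitor. In vehicle, lines KO2 and KO3 were below the WT range, and line KO1 was inside it. Rab3c had 519, 404 and 630 CPM in WT vehicle, 546, 507 and 559 in KO vehicle, 587, 558 and 455 in WT inhibitor and 526, 526 and 142 in KO inhibitor, with overlap between the genotypes. In endocytosis, Dnm1, the neuronal dynamin that pinches vesicles off, had 624, 566 and 677 CPM in WT vehicle, 706, 754 and 831 in KO vehicle, 622, 645 and 597 in WT inhibitor and 729, 803 and 177 in KO inhibitor. Each KO library other than KO inhibitor 3 was above every WT library. Synj1, the lipid phosphatase synaptojanin that helps to uncoat vesicles, ranged from 56 to 94.6 CPM in the other 11 libraries and 20.5 in KO inhibitor 3.

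**Figure D3:**
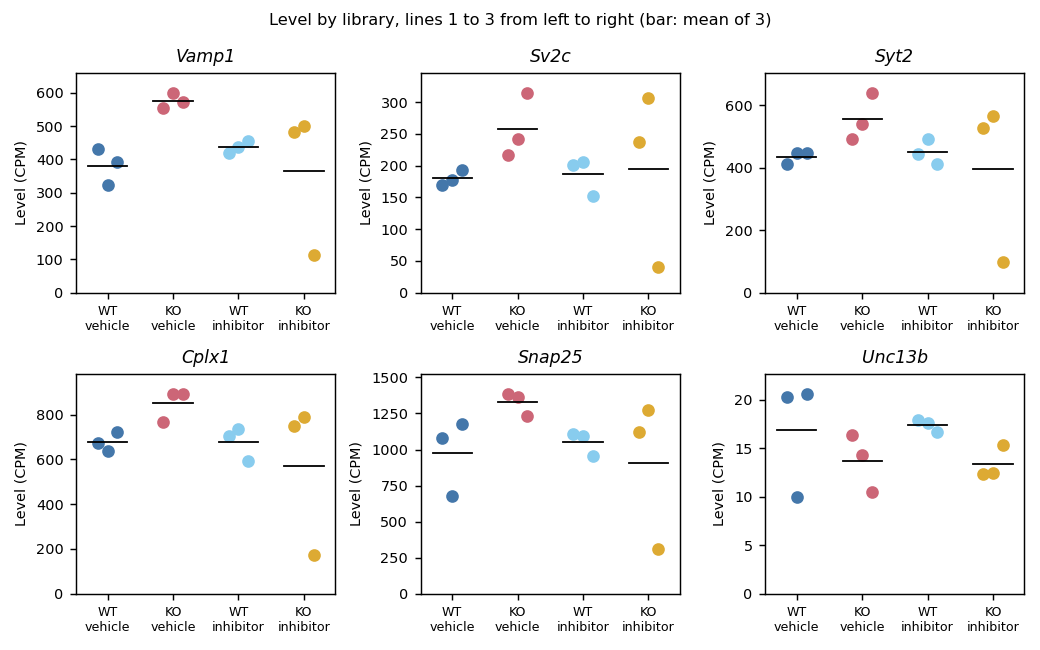
Level in CPM (y axis from 0) of 6 release genes in the 4 groups (x axis), with lines 1 to 3 from left to right and black bars at the mean of 3. KO vehicle points lie above WT vehicle points for Vamp1, Sv2c, Syt2, Cplx1 and Snap25; KO inhibitor 3 is low for those 5 genes and at 15.4 CPM for Unc13b.

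The first comparison asks whether loss of the microexon goes with other levels of release genes under vehicle. In vehicle, 31 of the 37 genes had a higher mean in KO than in WT and 6 a lower one, with a median log2 difference of 0.19 against -0.01 over all genes tested. All 8 SNARE genes, all 5 vesicle membrane genes, the 3 synapsins and both endocytosis genes were on the higher side, and 3 of the 8 priming and scaffold genes on the lower side. None of these differences passed the test. With edgeR's quasi-likelihood test no member was called at an adjusted p below 0.05, where 0% of all genes were called, and 0 members had an unadjusted p below 0.05, where 1.99% of genes did. DESeq2 also called 0 members, where 0.0718% of genes were, and gave 0 at an unadjusted p below 0.05, where 3.26% of genes were. Vamp1 had the smallest p, with a log2 difference of 0.59 ± 0.42 (SE, edgeR adjusted p = 0.999). Unc13b followed with -0.30 ± 0.27 (edgeR adjusted p = 0.999).

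In terms of separate libraries, 12 of the 37 genes had all 3 KO vehicle libraries above all 3 WT vehicle libraries, where 7.62% of all genes tested did, and 0 were separated in the lower direction, where 4.9% were. The 12 were Syn2, Syt2, Snap25, Vamp1, Cplx1, Sv2b, Sv2c, Rab3a, Dnm1, Nsf, Doc2a and Ppfia3. The same fit pools its spread over all 4 groups, so KO inhibitor 3 enters the error of the vehicle comparison. Without that library the median stayed at 0.19 and 12 members had an unadjusted p below 0.05, where 8.57% of genes did. All 12 were on the higher side, where 4.67% of genes were. These 12 were the separated genes with Syn1 in place of Sv2b. Vamp1 then had 0.59 ± 0.10 (edgeR unadjusted p = 0.00019, adjusted p = 0.247), and Sv2c 0.52 ± 0.17 (edgeR adjusted p = 0.529). No member passed the adjusted threshold there either. The pan-neuronal marker sum was 8896 to 9593 CPM in KO vehicle and 7545 to 8926 CPM in WT vehicle, and the mesenchymal sum 77.8 to 219 against 203 to 2066 CPM. The part of that difference in culture composition was not tested. Leaving out a library cannot undo a separation, so without WT vehicle 2 the 12 genes above could only stay separated. No further member joined them. Without WT vehicle 2, 12 of the 37 members were thus separated upward, where 11.7% of all genes tested were. Syt5, Unc13a, Unc13b and Rims2 then had every KO vehicle library below both remaining WT vehicle libraries, where 9.01% were. Leaving out WT vehicle 2 gave 24 higher and 13 lower and a median of 0.12, and leaving out KO vehicle 3 gave a median of 0.079. Without WT vehicle 2, Unc13b stood at -0.58 ± 0.19 (edgeR unadjusted p = 0.0131, adjusted p = 1).

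**Figure D4:**
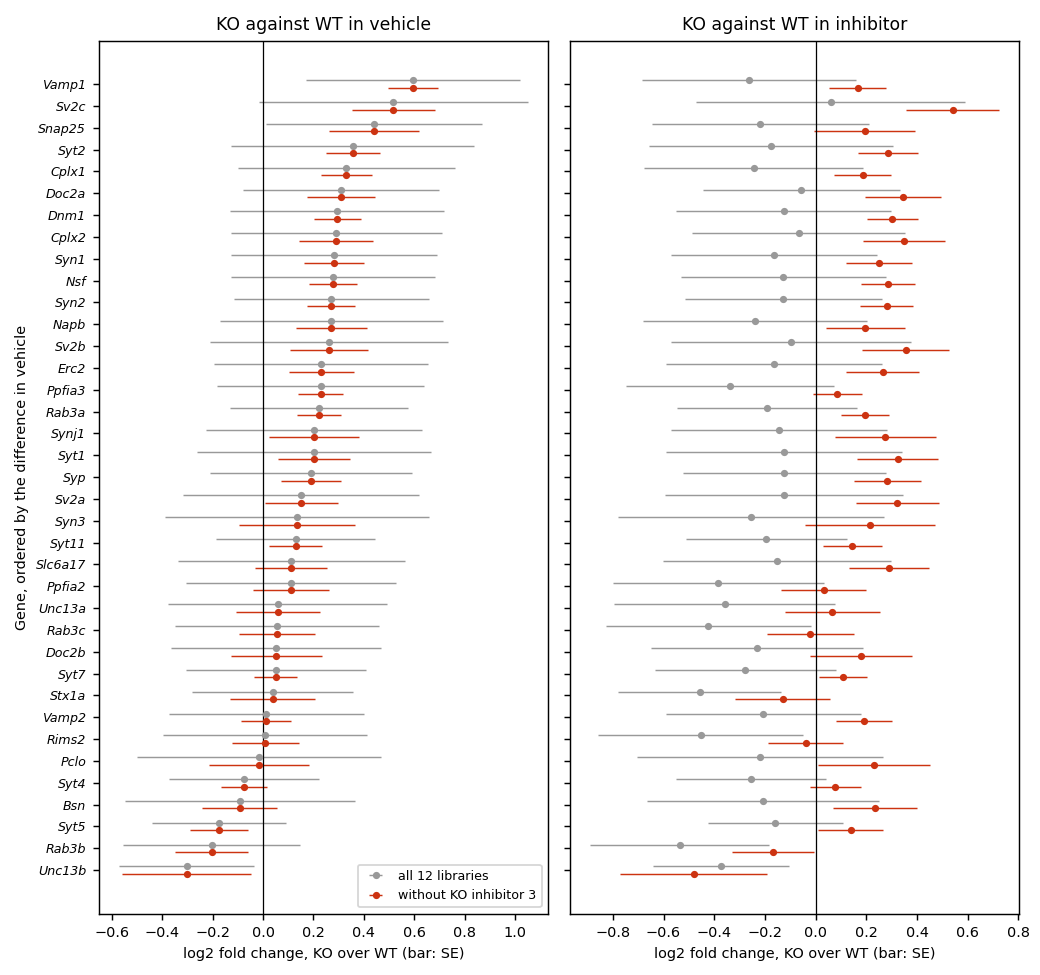
Log2 fold change of KO over WT (x axis, points with SE bars) for 37 release genes (y axis, ordered by the vehicle difference), in vehicle on the left and in inhibitor on the right, from edgeR with all 12 libraries (grey) and without KO inhibitor 3 (red). In the right panel 36 grey points lie below 0, and 32 red points lie above 0.

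The same question under the inhibitor gave an answer that rested on 1 library. With all 12 libraries, 1 of the 37 genes was higher in KO and 36 were lower, with a median log2 difference of -0.21 against -0.0005 over all genes tested. In edgeR 0 members were called, where 0% of genes were, and 0 had an unadjusted p below 0.05, where 3.5% of genes did. DESeq2 gave 0 members by either measure, where 0.118% of genes were called and 5.66% had an unadjusted p below 0.05. The smallest p belonged to Rab3b, at -0.54 ± 0.35 (edgeR adjusted p = 0.856), and next was Stx1a, at -0.46 ± 0.32 (edgeR adjusted p = 0.856). Unc13b alone had every KO inhibitor library below every WT inhibitor library, where 7.03% of genes did, and 0 members were separated upward, where 3.51% were. Without KO inhibitor 3 the sign turned. Then 32 genes were higher and 5 lower, with a median of 0.19 against -0.049 over all genes, and 6 had an unadjusted p below 0.05 in edgeR, where 9.5% of genes did. All 6 were higher, where 4.98% of genes were. They were Dnm1, Sv2c, Nsf, Syn2, Syt2 and Doc2a, with adjusted p-values from 0.502 to 0.517. Sv2c stood at 0.54 ± 0.18 (edgeR adjusted p = 0.502) and Dnm1 at 0.30 ± 0.10 (edgeR adjusted p = 0.502). Of the 37, 21 had both remaining KO libraries above all 3 WT libraries, where 17.1% of genes did, and Unc13b had both below, where 19.6% did. The vehicle and inhibitor comparisons use different libraries of the same 6 lines.

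In a choice made after seeing the data, 3 libraries were left out, KO inhibitor 3 and the WT libraries rich in mesenchymal and progenitor markers. Then 24 genes were higher and 13 lower in vehicle, and 31 and 6 in inhibitor. The unadjusted p was then below 0.05 in edgeR for 7 members in vehicle, where 6.23% of genes were, and for 3 in inhibitor, where 9.71% were. Vamp1 and Unc13b were among them in both, Vamp1 higher and Unc13b lower in KO.

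Over both treatments and without KO inhibitor 3, 7 genes had each of the 5 KO libraries above each of the 6 WT libraries, where 2.69% of all genes did. They were Syt2, Vamp1, Cplx1, Sv2c, Dnm1, Nsf and Doc2a. None was below, where 1.44% were. With WT vehicle 2 and WT inhibitor 3 also left out, these 7 could only stay above. No further member joined them, so 7 of the 37 were above, where 4.16% of all genes tested were. Unc13b was below, where 3.06% were. For Vamp1 the 6 WT libraries ran from 322 to 456 CPM and the 5 KO libraries from 482 to 599 CPM, and for Sv2c from 153 to 206 and from 216 to 314 CPM. A ratio within a library does not change with its scaling. Sv2a over Sv2c was 5.17 to 6.2 in WT and 4.36 to 4.99 in the 5 KO libraries, so Sv2c was higher relative to Sv2a in those KO libraries. Syt11 over Syt2 was 2.25 to 2.53 in WT and 2.06 to 2.14 in the same 5 KO libraries. KO inhibitor 3 did not share these differences. Its Syt11 over Syt2 was 4.33, above WT, and its Sv2a over Sv2c was 6.16, inside the WT range. Syt2 over Syt4 and Syt2 over Syt7 were higher in the 5 KO libraries than in WT, and below WT in KO inhibitor 3. Of these ratios all but Sv2a over Sv2c share Syt2, and Syt2 and Sv2c had already separated by genotype above. The ratios are therefore not independent of that separation, and they were not counted over gene pairs at large. Every other pair of relatives compared overlapped between WT and the 5 KO libraries. Vamp2 over Vamp1, for example, was 2.61 to 4.42 in WT and 2.48 to 3.24 in those KO libraries.

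The 2 libraries of a line are not independent, so genotype was also compared over the summed counts of each line. Over these 6 sums, 20 genes were higher in KO and 17 lower, with a median of 0.033 against 0.045 over all genes tested. In edgeR 0 members were called, where 0% of genes were, and 0 reached an unadjusted p below 0.05, where 2.65% of genes did. DESeq2 called 0 members, where 0.549% of genes were, and 0 had an unadjusted p below 0.05, where 4.16% of genes did. Unc13b had the smallest p, at -0.32 ± 0.16 (edgeR adjusted p = 0.998), and Sv2c the next, at 0.31 ± 0.20 (edgeR adjusted p = 0.998). With line KO3 represented by its vehicle library alone, 32 were higher and 5 lower, with a median of 0.25 against -0.024 over all genes. Then 22 members had an unadjusted p below 0.05, where 22.9% of genes did, with 21 of them higher, where 10.9% were, and Unc13b lower. Vamp1 had the smallest adjusted p among the members, 0.0906 in edgeR, at 0.41 ± 0.07. No member was called, while 29 genes elsewhere were, 0.181% of those tested.

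The next comparisons concern the inhibitor. In WT neurons 17 release genes were higher and 20 lower with Y-27632, and every difference lay between -0.14 and 0.20 on the log2 scale. The median was -0.0063 against 0.011 over all genes tested. In edgeR 0 members were called, where 0% of genes were, and 0 had an unadjusted p below 0.05, where 0.304% of genes did. DESeq2 gave 0 members by either measure, where 0% of genes were called and 0.431% had an unadjusted p below 0.05. Syt5, at -0.14 ± 0.27, and Vamp1, at 0.20 ± 0.42, had the smallest p-values (edgeR adjusted p = 1 for both). No member had its 3 inhibitor libraries all above or all below its 3 vehicle libraries, where 3.04% and 2.93% of genes did. Without WT vehicle 2, 34 genes were lower and 3 higher, with a median of -0.12, and without WT inhibitor 3 the median was 0.078. Those are the WT libraries with the highest mesenchymal and progenitor sums. They held the lowest WT value for 14 and 22 members. The same was not counted over all genes tested, and a link with the marker sums was not tested.

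In KO neurons all 37 genes had a lower mean with the inhibitor, with a median of -0.40 against -0.018 over all genes tested. In edgeR 0 members were called, where 0% of genes were, and 0 had an unadjusted p below 0.05, where 7.05% of genes did. DESeq2 gave 0 members by either measure, where 0% of genes were called and 14.1% had an unadjusted p below 0.05. Vamp1 stood at -0.66 ± 0.42 (edgeR adjusted p = 0.49) and Ppfia3 at -0.59 ± 0.41 (edgeR adjusted p = 0.507). Without KO inhibitor 3, 22 genes were higher and 15 lower, the median was 0.016, and 0 had an unadjusted p below 0.05, where 1.15% of genes did. That count is from the fit that ignores the pairing of each line's libraries. With the line as a block it was also 0 over all libraries, where 1.66% of genes were below that p. With the block and without KO inhibitor 3 it was 1, where 3.34% of genes were, and that member was Bsn, at 0.40 ± 0.14 (edgeR unadjusted p = 0.033, adjusted p = 1). Vamp1 was at -0.23 ± 0.14 in that fit (edgeR unadjusted p = 0.151). Vamp1 and Ppfia3 were the 2 members with each KO inhibitor library below each KO vehicle library, where 5.65% of genes were separated downward, and 0 were separated upward, where 3.19% were.

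The difference between the KO and WT responses was tested as an interaction. It was negative for 36 of the 37 genes, with a median of -0.39 against -0.0097 over all genes tested. In edgeR 0 members were called, where 0% of genes were, and 0 had an unadjusted p below 0.05, where 1.2% of genes did. DESeq2 gave 0 members by either measure, where 0% of genes were called and 3.32% had an unadjusted p below 0.05. Vamp1 had -0.86 ± 0.60 (edgeR adjusted p = 0.808) and Stx1a -0.50 ± 0.45 (edgeR adjusted p = 0.808). Without KO inhibitor 3 it was positive for 24 genes and negative for 13, with a median of 0.023. In the unpaired fit Vamp1 was then the single member with an unadjusted p below 0.05, at -0.43 ± 0.15 (edgeR unadjusted p = 0.0191, adjusted p = 1), where 2.03% of genes were below 0.05. With the line as a block, 0 members were below 0.05 over all libraries, where 1.08% of genes were. With the block and without KO inhibitor 3, where 4.41% of genes were, the members below 0.05 were Bsn, at 0.53 ± 0.18 (edgeR unadjusted p = 0.0304, adjusted p = 1), and Syt5, at 0.40 ± 0.14 (edgeR unadjusted p = 0.0344, adjusted p = 1). Vamp1 was at -0.44 ± 0.18 in that fit (edgeR unadjusted p = 0.0538, adjusted p = 1).

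Scaled to other neuronal transcripts, the summed release genes of the low library were within the range of the rest. The summed CPM of the 37 release genes divided by that of 15 pan-neuronal markers was 1.41, 1.44 and 1.51 in WT vehicle, 1.48, 1.52 and 1.6 in KO vehicle, 1.42, 1.42 and 1.49 in WT inhibitor, and 1.48, 1.59 and 1.43 in KO inhibitor. KO inhibitor 3, at 1.43, was inside the range of the others. The sum of the wider list of release-cycle genes described below was not. Over the same denominator it was 1.47 in KO inhibitor 3 and 1.1 to 1.24 in the other 11. Gene by gene, 20 members of that library were inside the range of the other 11 on this scale, 10 below and 7 above. Of all genes tested, 10.5% were inside, 3.59% below and 85.9% above. Sv2c, Syt2, Syt1, Sv2a and Cplx1 were among those below, and Syt4, Syt5, Syt11, Stx1a and Unc13b among those above. Sv2c was 1.95% to 2.35% of the pan-neuronal sum in the 6 WT libraries, 2.43% to 3.31% in the 5 other KO libraries, and 1.64% in KO inhibitor 3. Doc2a was 0.36% to 0.443% in WT, 0.447% to 0.486% in those 5, and 0.476% in KO inhibitor 3. Sv2c and Doc2a were the 2 members whose 5 KO libraries were all above the 6 WT libraries on this scale, where 0.453% of genes were, and 0 were all below, where 3.57% were. Vamp1 overlapped there, with WT inhibitor 3 at 6.26% inside the KO range of 5.31% to 6.47%.

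**Figure D5:**
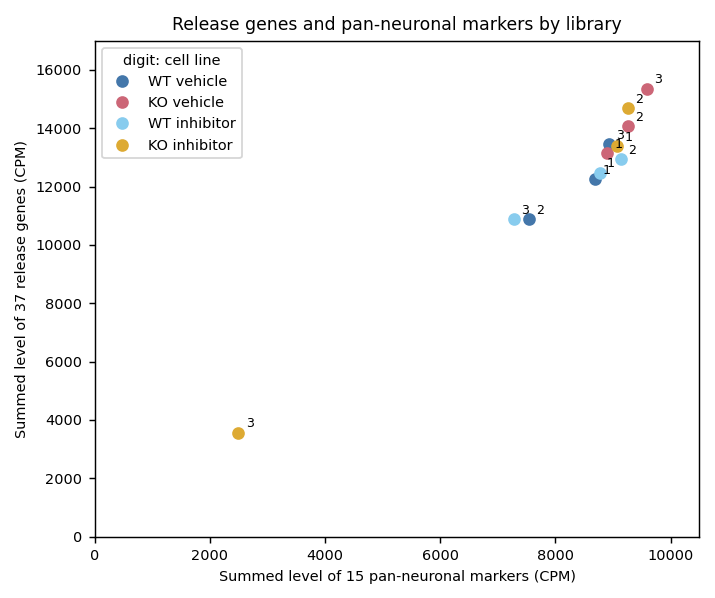
Summed level of 37 release genes (y axis, CPM) against the summed level of 15 pan-neuronal markers (x axis, CPM) in each of the 12 libraries, coloured by group, with the line number beside each point. KO inhibitor 3 lies at 3559 and 2494 CPM, and the ratio of the sums is between 1.41 and 1.6 in all 12.

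A wider list of 61 other genes of the release cycle, of which 59 were tested, was counted in the same way. In vehicle 48 were higher in KO and 11 lower (median 0.19), in inhibitor 12 and 47 (median -0.15), and without KO inhibitor 3 the inhibitor counts were 44 and 15 (median 0.17). With the inhibitor, 29 were higher and 30 lower in WT and 8 and 51 in KO. The interaction was positive for 7 and negative for 52, and over line sums 40 were higher in KO and 19 lower. Without KO inhibitor 3 the KO response was 26 higher and 33 lower, the interaction 27 positive and 32 negative, and the line sums 47 higher and 12 lower. None was called by edgeR or DESeq2 in any comparison. In edgeR, 1 had an unadjusted p below 0.05 in each genotype comparison (where 1.99% of genes did in vehicle, 3.5% in inhibitor and 2.65% over line sums), 2 in the KO response (7.05%) and 0 in the WT response (0.304%) and the interaction (1.2%). Without KO inhibitor 3 these counts were 14 in vehicle (8.57%), 10 in inhibitor (9.5%), 33 over line sums (22.9%), 1 in the KO response (1.15%), 1 in the WT response (1.36%) and 0 for the interaction (2.03%), with 0 called. Slc17a7 gave the smallest p for genotype, at 0.74 ± 0.26 in vehicle (edgeR unadjusted p = 0.0185, adjusted p = 0.999), but its level was 0.6 to 2.04 CPM. Slc18a2 was lower still, at 0.3 to 1.11 CPM. In second place for genotype were Cadps2, a dense-core vesicle priming factor, at 0.37 ± 0.22 in vehicle, Slc18a2, the vesicular monoamine transporter, at 0.63 ± 0.40 in inhibitor, and Rab3gap1, a Rab3 regulator, at 0.15 ± 0.07 over line sums. In the WT response the smallest p-values were those of Slc18a2, at -0.88 ± 0.40, and Cadps2, at 0.39 ± 0.22, and for the interaction those of Cadps2, at -0.68 ± 0.32, and Slc18a2, at 1.16 ± 0.57. In KO neurons the smallest p-values for the inhibitor were those of Vamp3 and Snap23, at 1.77 ± 0.75 and 2.21 ± 0.98 (edgeR adjusted p = 0.474 for both). With KO inhibitor 3 left out they were 0.18 ± 0.44 and 0.27 ± 0.71 (edgeR adjusted p = 1 for both). Vamp3 and Snap23 encode the SNAREs used by non-neuronal cells for constitutive traffic. Vamp3 was at 111 CPM in KO inhibitor 3 and 11 to 33.5 CPM in the other 11 libraries, and Snap23 at 76.5 against 4.04 to 23.7 CPM, the reverse of the low Vamp2 and Snap25 in that library.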

How the data were processed

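RNA-seq was deposited for 12 libraries. The authors deposited, per the file headers and values, a whole-number read count per gene and a cRPKM value, an RPKM scaled by gene length and library size. Per the labels, poly(A) RNA went into stranded libraries, and per the submitters' processing notes the build was mm10. The aligner, the counting settings and the use of strand were not given in the sources used here. Each table lists 36902 genes, of which 3342 are NA throughout. Of the 33560 with counts, 33371 matched a symbol. The series' design text speaks of hippocampus, and the sample labels were followed.

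Counts were tested with edgeR 4.0.16 in R 4.3.3 (TMM factors, filterByExpr, robust quasi-likelihood test, 15443 genes, Benjamini-Hochberg over all of them, calls at 0.05), with 1 coefficient per group over all 12 libraries, and on 6 line sums (16090 genes). DESeq2 1.42.0 was an alternative. Levels are TMM-scaled CPM, or cRPKM between genes. On simulated data for KO against WT in vehicle, with 15443 genes and the spread of these libraries, the test called 16% of 50 genes given a true log2 difference of 1, 66% of 50 at 2, 76% of 50 at 3 and 84% of 50 at 4, with 11 false calls. The simulated spread was estimated with KO inhibitor 3 included, and the changed genes were drawn from all genes tested. Vehicle and inhibitor libraries of a line are paired by the labels. Their deviations from the group means correlated at 0.411, -0.553 and -0.723 in WT and -0.191, 0.574 and -0.373 in KO.

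The members and lists were chosen with earlier results of these data known, so no test was made over a list. Values in every library are given for the best-known member of each role, the 2 smallest p-values per comparison, and paralogs separated in all 4 groups. Syt2 and Doc2a were added after their values were seen, as were the ratios within families that differ by genotype. Gene positions come from GENCODE M21, and promoters from RefSeq.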

Additional observations from a re-analysis of the deposited data

How the results depend on the processing

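No member was called in any comparison under any setting run. Signs of medians did turn. Without KO inhibitor 3 the median was 0.19 for genotype in inhibitor, 0.016 for the KO response and 0.023 for the interaction. Leaving out single libraries in turn gave 0.079 to 0.27 for genotype in vehicle, -0.52 to 0.19 in inhibitor, -0.12 to 0.078 for the WT response, -0.72 to 0.016 for the KO response and -0.69 to 0.023 for the interaction. Over line sums the median was -0.13 to 0.19 on leaving out each whole line, and 0.25 with line KO3 as its vehicle library alone. The number of genes called, 0 in each comparison, became 11 in vehicle and 18 in inhibitor with DESeq2, and 2 and 1 with 3 libraries left out (KO inhibitor 3, WT vehicle 2 and WT inhibitor 3, chosen after seeing the data). Over line sums it became 2 with no filter on low counts, 88 with DESeq2 and 29 when line KO3 was its vehicle library alone, also chosen after seeing the data. The cause was not tested.

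With the cell line as a replicate block, the pairing changed no adjusted call. The medians were -0.60 for the KO response, -0.0029 for the WT response and -0.59 for the interaction, and without KO inhibitor 3 they were 0.081, -0.0032 and 0.10. For genotype the replicate number is only a number. As a block it gave 0.19 in vehicle, -0.28 in inhibitor and -0.0052 over line sums, with 0 genes called. The simulation used 3 libraries a group and a spread estimated with KO inhibitor 3 included. At that spread, differences well below 2 on the log2 scale would often be missed. The simulation was not run for the fits without that library, where the SE of Vamp1 in vehicle was smaller.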
